A study of Homo sapiens with 30 samples.

Results

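The comparison set 3 libraries of cells that carried the EGFP(R65) reporter against 12 libraries of cells that carried 1 of 4 EGFP(R96) reporters, which makes 15 of the 30 libraries of the series. Those 4 reporters were EGFP(R96Q), EGFP(R96C), EGFP(R96H) and also EGFP(R96W), with 3 libraries each, and a change was measured against the mean of these 4 groups. Members were chosen from the titles alone, as the libraries with a reporter and no missense-correcting tRNA (mc-tRNA). All came from HEK293, an established human embryonic kidney line labelled as wild type, which received the mistranslation reporter EGFP(mutant)-mCherry on a plasmid. Cells with mCherry signal were collected by sorting at 48 h, and their polyA-selected RNA was sequenced, per the labels' protocols. The labels call the 3 libraries of a group independent replicates. The other 15 libraries carried the same reporters with their cognate mc-tRNA, a tRNA engineered to carry an amino acid that its anticodon does not call for. They were EGFP(R65)+Ser-tRNA_Arg(CCG), EGFP(R96Q)+Arg-tRNA_Gln(CUG), EGFP(R96C)+Arg-tRNA_Cys(GCA), EGFP(R96H)+Arg-tRNA_His(GUG) and EGFP(R96W)+Arg-tRNA_Trp(CCA), and they are used below only where said.

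In green fluorescent protein, residue 65 is part of the chromophore and the arginine at residue 96 helps the chromophore form. Some changes at either place leave a protein that is made but does not glow, and a tRNA that puts the original amino acid back restores the signal, so such proteins serve as reporters of mistranslation. The mCherry part marks the cells that took up the plasmid.

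The sides differed in more than the reporter. Gene totals were 39017548 to 43164533 counts in the EGFP(R65) libraries and 39961504 to 55446962 counts in the EGFP(R96) libraries. ERCC sequences, synthetic RNAs that are added to a sample as a standard, had 0 counts in each of the 3 EGFP(R65) libraries and 20 to 106 counts in the 12 EGFP(R96) libraries. The 13 mitochondrially encoded mRNAs took 2.57% ± 0.0625 of the gene counts in EGFP(R65) libraries and 4.05% ± 0.236 in EGFP(R96) libraries (SD, n = 3 and 12). The 100 most abundant genes took 15.3% ± 0.452 in EGFP(R65) libraries and 19.1% ± 1.02 in EGFP(R96) libraries. Each of these 3 values separated all 3 EGFP(R65) libraries from all 12 EGFP(R96) libraries (two-sided exact permutation test over libraries, p = 0.0044, the smallest that 3 against 12 can give, adjusted p = 0.00806 over 11 values per library). The test took single libraries as its units, although the 12 came from 4 groups and the 3 from 1 group. It does not measure the spread between groups. Genes with at least 10 counts, count-weighted exon length and the pseudogene share also separated the sides. Gene totals, count-weighted GC content and the protein-coding and lincRNA or antisense shares did not pass (same test, adjusted p = 0.175 to 0.892). The mitochondrial rRNA share was 0.851% ± 0.0651 in EGFP(R65) and 0.862% ± 0.255 in EGFP(R96) libraries (same test, adjusted p = 0.861). No EGFP(R65) library had ERCC counts and no EGFP(R96) library lacked them, and whether a spike-in was added to either side was not tested. The reporter and any difference in cell stock or preparation that went with the ERCC counts cannot be told apart. No value within libraries of 1 kind can be given. The first principal component of log2 CPM carried 74.8% of the variance and split the sides.

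**Figure D1:**
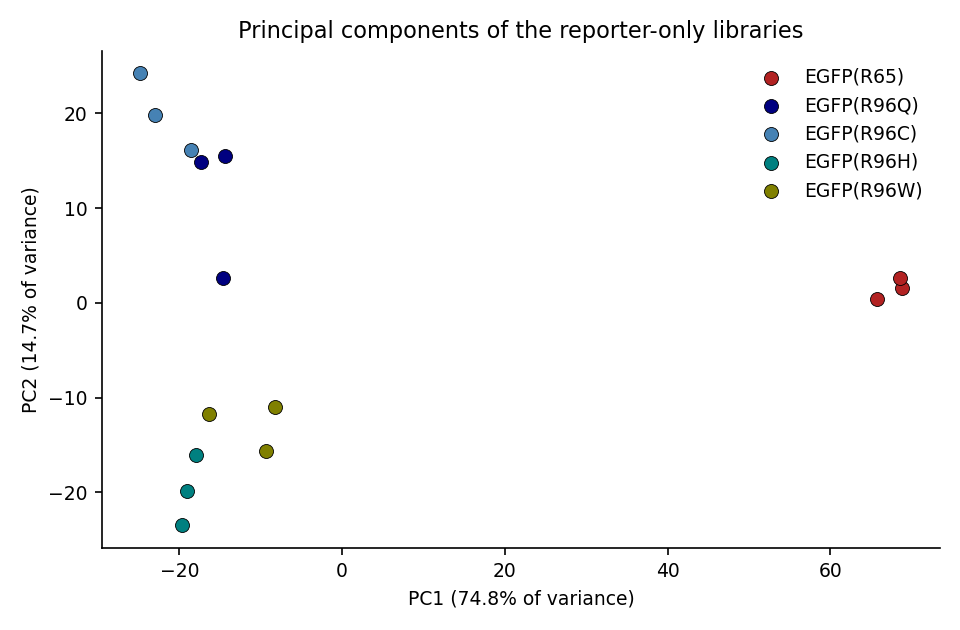
Principal components of log2(CPM + 0.5) over 11668 genes with a mean of at least 5 CPM, 1 point per library, with PC1 on the horizontal and PC2 on the vertical axis, in percent of the variance. The 3 EGFP(R65) libraries lay between 65.8 and 68.8 on PC1 and the 12 EGFP(R96) libraries between -24.8 and -8.2, while PC2 (14.7%) spread the 4 EGFP(R96) reporters and left EGFP(R65) near 0.

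Most genes that could be tested differed. Of 22321 genes, 7506 rose in EGFP(R65) cells (33.6%) and 7891 fell (35.4%), so 69.0% were called at an adjusted p under 0.05 (edgeR quasi-likelihood test, Benjamini-Hochberg adjustment). Of all 22321 genes, 2152 (9.64%) were called with a rise of at least 2-fold and 2710 (12.1%) with a fall of at least 2-fold. For 10145 genes (45.5%) the 3 EGFP(R65) libraries lay all above or all below the 12 EGFP(R96) libraries. The median size of the difference over all genes was 0.54 on the log2 scale. Set against 1 reporter at a time, EGFP(R65) differed in 13694 genes (61.4%) from EGFP(R96Q), in 14634 (65.6%) from EGFP(R96C), in 14594 (65.4%) from EGFP(R96H) and in 13146 (58.9%) from EGFP(R96W). These 4 comparisons share the EGFP(R65) libraries. Each EGFP(R96) reporter set against the mean of the other 3 gave fewer calls, 5161 (23.1%) for EGFP(R96Q), 8092 (36.3%) for EGFP(R96C), 7979 (35.7%) for EGFP(R96H) and 4602 (20.6%) for EGFP(R96W), with median sizes of 0.18 to 0.24. With shares this large, a single called gene says little, and the groups below are read against the 33.6% that rose and the 35.4% that fell.

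A small number of genes were near on or off. CACNA1A, the pore subunit of a neuronal voltage-gated calcium channel, had 443, 482 and 476 CPM in the 3 EGFP(R65) libraries, against a lowest of 0.0353, a median of 0.131 and a highest of 0.262 CPM in the 12 EGFP(R96) libraries. That is 59699 against 82 counts in all, a 3424-fold difference with a 95% counting interval of 2758 to 4306 (log2 change 11.81 ± 0.19 (SE), adjusted p = 5.66e-23). The groups were far apart in every library, and the rule that named the gene took only genes without overlap. CACNA1A lies on chromosome 19, from base 13206442 to base 13633025 on the minus strand (GRCh38). The labels give 1 cell line and 1 protocol for all libraries and do not say whether both sides came from the same cell stock or were prepared together. For this gene and the others near on or off, a difference in cell stock and the reporter cannot be told apart.

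Other genes of the same pattern had varied roles. CAVIN2, a coat protein of caveolae, had 226, 288 and 277 CPM in EGFP(R65) libraries and at most 0.172 CPM in EGFP(R96) libraries. SRMS, a non-receptor tyrosine kinase, had 125, 126 and 140 CPM in EGFP(R65) libraries and at most 0.143 CPM in EGFP(R96) libraries. CYP11A1, the enzyme that cleaves the cholesterol side chain in steroid synthesis, had 31.7, 34.3 and 30.9 CPM in EGFP(R65) libraries and at most 0.0404 CPM in EGFP(R96) libraries. CHRNA1, a muscle acetylcholine receptor subunit, had 44.7, 46.3 and 43.0 CPM in EGFP(R65) libraries and at most 0.085 CPM in EGFP(R96) libraries. None of these genes overlapped between the sides, which the rule that named them required. The 12 largest rises also held S100A5, HPDL, the histone gene H3C11, the antisense transcript PRRX2-AS1 and the processed pseudogenes KRT18P43 and GAPDHP64. Counts of a processed pseudogene or of a histone copy are uncertain where reads match their relatives, and PRRX2-AS1 is read by strand only as far as the counting used it. CCDC85C and DIPK1B reached higher levels but were expressed on both sides, so they were not near off. CCDC85C had 2362, 2645 and 2745 CPM in EGFP(R65) libraries and 44.3 to 56.9 CPM in EGFP(R96) libraries, a 51.4-fold difference. DIPK1B had 1772, 1881 and 1815 CPM against 35.2 to 54.2 CPM, a 41.2-fold difference. These 2 genes fell outside the naming rule and were chosen after their values were seen.

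The opposite pattern was as sharp. KRT16, a keratin of stratified epithelia, had 0 counts in all 3 EGFP(R65) libraries and a lowest of 42.7, a median of 87.6 and a highest of 109.5 CPM in EGFP(R96) libraries, where it summed to 47120 counts. Against the 3 counts that a sum of 0 allows, it was at least 3340-fold lower in EGFP(R65) cells. CSH2, a placental lactogen, had 0, 0 and 0.023 CPM in EGFP(R65) libraries and a lowest of 101, a median of 213 and a highest of 331 CPM in EGFP(R96) libraries, 1 count against 124829, which is 26542-fold higher in EGFP(R96) cells with a counting interval of 4764 to 1048350. Its near-identical neighbour CSH1 had 0 counts in EGFP(R65) libraries and 1 in EGFP(R96) libraries, and how reads shared between the copies were divided is uncertain. SMYD1, a muscle methyltransferase, had 0, 0.025 and 0.0689 CPM in EGFP(R65) libraries and a lowest of 127, a median of 289 and a highest of 390 CPM in EGFP(R96) libraries (log2 change -12.84 ± 0.33, adjusted p = 2.84e-19). None of the 3 overlapped between the sides, which the rule that named them required. KRT14 and KRT17, which cluster with KRT16, did not share its level. KRT14 had 0 counts in EGFP(R65) libraries and 1 in EGFP(R96) libraries. KRT17 averaged 0.107 CPM in EGFP(R65) libraries and 0.223 CPM in EGFP(R96) libraries. Another keratin gene, KRT7, did belong to the set of EGFP(R96)-high genes described below. The 12 largest falls further held ZNF732, DUSP5P2, LINC02150, CSMD1, OR9I1, COX6A1P1, SLC28A2, the sodium channel SCN10A and the taste receptor TAS1R1.

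Among genes of at least 50 CPM, TRAPPC9 and FAT4 followed. TRAPPC9, a subunit of a complex that tethers vesicles to the Golgi, had 18.3, 19.8 and 19.2 CPM in EGFP(R65) libraries and a lowest of 269, a median of 527 and a highest of 837 CPM in EGFP(R96) libraries (log2 change -4.74 ± 0.16, adjusted p = 1.47e-17). FAT4, a giant cadherin, had 10.8, 11.6 and 11.7 CPM in EGFP(R65) libraries and a lowest of 57.8, a median of 79.4 and a highest of 142.3 CPM in EGFP(R96) libraries (log2 change -2.82 ± 0.19, adjusted p = 1.84e-11). Neither overlapped between the sides, which the rule that named them required. Among the EGFP(R96) groups the mean was lowest in EGFP(R96H) for both, at 300.7 ± 28.7 CPM for TRAPPC9 and 60.0 ± 2.78 CPM for FAT4 (SD, n = 3).

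**Figure D2:**
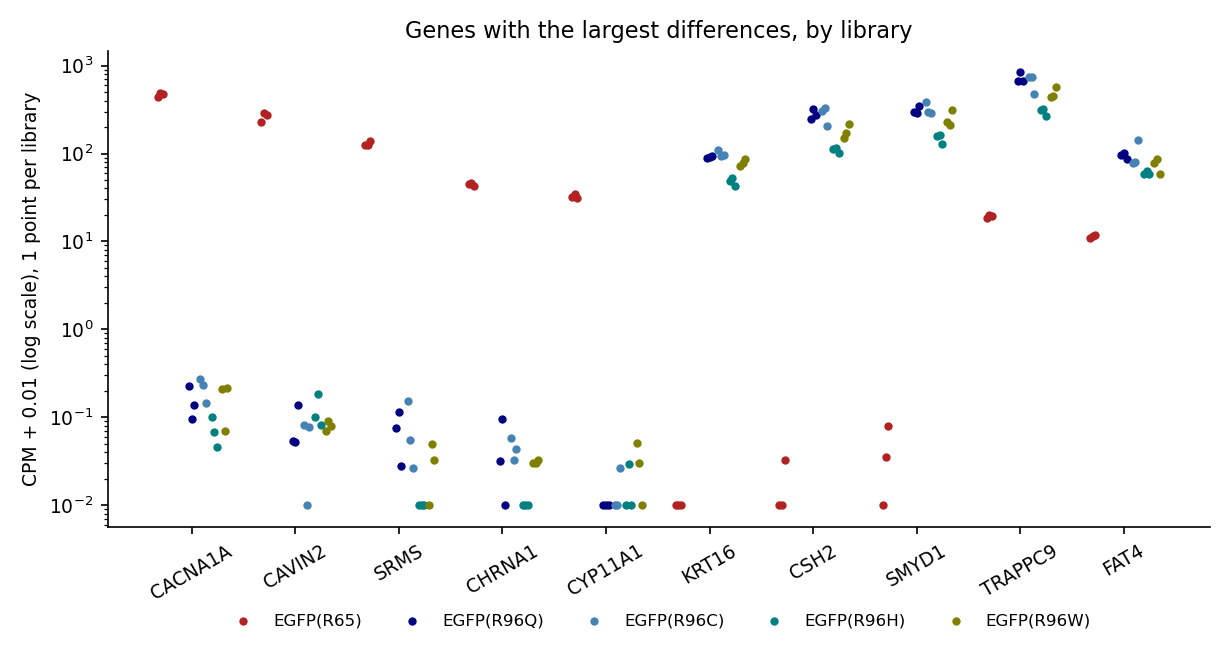
CPM + 0.01 on a log axis for 10 named genes, 1 point per library, with EGFP(R65) in red left of the 4 EGFP(R96) reporters. CACNA1A, CAVIN2, SRMS, CYP11A1 and CHRNA1 stood between 30.9 and 482 CPM in EGFP(R65) libraries and at most 0.262 CPM in EGFP(R96) libraries, while KRT16, CSH2 and SMYD1 were at or near 0 in EGFP(R65) libraries.

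A set of these genes was cut out by size, which makes their difference a description and no result. Genes that passed the test against the mean and against each EGFP(R96) reporter, did not overlap, reached 1 CPM on their higher side and differed at least 32-fold (5 on the log2 scale) fell in a pair of sets, where 9466 genes (42.4%) met the test against each reporter alone. The EGFP(R65)-high set held 76 protein-coding genes, 37 pseudogenes and 29 others. The EGFP(R96)-high set held 49 genes, of which 26 were protein coding and 8 pseudogenes. Those with a chromosome given lay on 23 and 19 chromosomes, and 26.1% and 16.3% were pseudogenes, where 11.2% of all genes tested were. Of 255 nearest tested neighbours of the EGFP(R65)-high genes outside the sets, 27 (10.6%) rose at least 2-fold, near the 9.64% of all genes. Of 85 neighbours of the EGFP(R96)-high genes, 18 (21.2%) fell at least 2-fold, where 12.1% of all genes did.

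Levels of both sets were also set side by side within a reporter or between EGFP(R96) reporters. Each of these ratios has libraries in it that the cut used, so they are descriptions with no test. The EGFP(R65)-high genes had a median log2 ratio of -0.80 between EGFP(R65)+Ser-tRNA_Arg(CCG) and EGFP(R65) cells, with an interquartile range of -0.99 to -0.64. Over 14669 genes of at least 1 CPM in EGFP(R65) cells the median was -0.10, from -0.52 to 0.27. The sum over the set was 7219 ± 374 CPM in EGFP(R65)+Ser-tRNA_Arg(CCG) cells and 12366 ± 468 CPM in EGFP(R65) cells (SD, n = 3 each). The genes had been picked for high values in those EGFP(R65) libraries.

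The 49 EGFP(R96)-high genes differed between the EGFP(R96) reporters to unlike degrees. Their median log2 ratio of EGFP(R96H) to EGFP(R96Q) was -1.07 (interquartile range -1.29 to -0.92), against 0.07 (-0.14 to 0.28) over 14864 genes of at least 1 CPM. The ratio of EGFP(R96W) to EGFP(R96Q) was -0.40 (-0.52 to -0.28), against 0.05 (-0.13 to 0.22). That of EGFP(R96C) to EGFP(R96Q) was 0.09 (-0.07 to 0.36), against 0.01 (-0.14 to 0.16), so there the set scattered more widely than all genes. With mc-tRNA over without, the set scattered more widely than all genes for EGFP(R96Q), at 0.07 (-0.17 to 0.20) against 0.0039 (-0.08 to 0.08). For EGFP(R96C) the ratio was 0.84 (0.38 to 0.99), against -0.002 (-0.48 to 0.51), with some members at or below -0.93 and others at or above 1.19. For EGFP(R96H) it was 0.42 (0.33 to 0.54), against -0.0071 (-0.11 to 0.09), and for EGFP(R96W) it was 0.14 (-0.03 to 0.34), against -0.02 (-0.29 to 0.25). The sum over the set was 1292 ± 53.5 CPM in EGFP(R96Q), 1379 ± 60.7 CPM in EGFP(R96C), 580 ± 55.1 CPM in EGFP(R96H) and 963 ± 107 CPM in EGFP(R96W) cells.

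**Figure D3:**
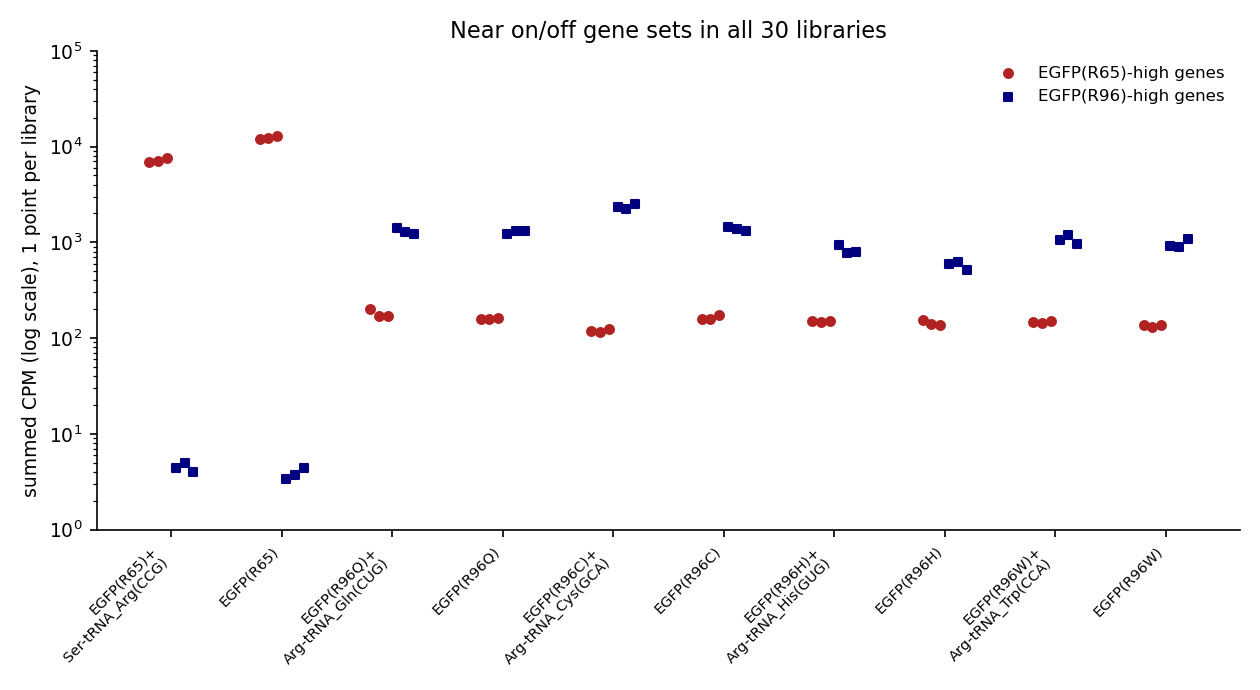
Summed CPM on a log axis of the EGFP(R65)-high genes (red circles) and the 49 EGFP(R96)-high genes (blue squares) in all 30 libraries, with the groups along the horizontal axis. The EGFP(R65)-high sum was 6946 to 12905 CPM in the 6 EGFP(R65) libraries with and without mc-tRNA and at most 203 CPM in the others, and the EGFP(R96)-high sum was lowest in EGFP(R96H) among the EGFP(R96) groups.

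Most genes for ribosomal proteins and for the respiratory chain were lower in EGFP(R65) cells. Of 77 cytosolic ribosomal protein genes, 70 fell and 2 rose, with a median log2 change of -0.54 where all genes had -0.05. Their sum was 53174, 55531 and 60112 CPM in EGFP(R65) libraries and at least 65603 CPM in EGFP(R96) libraries, with a median of 78214 CPM. RPL7A, a protein of the large subunit, had 806, 854 and 917 CPM in EGFP(R65) libraries and a lowest of 1342, a median of 1696 and a highest of 1982 CPM in EGFP(R96) libraries (log2 change -0.96 ± 0.066, adjusted p = 2.82e-15). RPL17 (0.89 ± 0.062, adjusted p = 5.11e-15) and RPS10 (1.16 ± 0.095, adjusted p = 3.77e-13) rose, both at low levels, of 48.0 and 7.21 CPM in EGFP(R65) cells and 25.9 and 3.23 CPM in EGFP(R96) cells. Ribosomal protein genes have many processed copies, which makes single values uncertain. EEF1A1, the elongation factor that brings tRNAs to the ribosome, had 3997, 4105 and 4421 CPM in EGFP(R65) libraries and 6546 to 9465 CPM in EGFP(R96) libraries (-0.93 ± 0.058, adjusted p = 2.41e-16). It belongs to a list of 32 translation initiation and elongation factors that was split, with 13 rising and 12 falling (median 0.04). ETF1, the release factor that ends translation, averaged 401 ± 18.8 CPM in EGFP(R65) libraries, against 188.8 to 243 CPM in EGFP(R96) libraries (0.90 ± 0.046, adjusted p = 1.05e-18), and EIF4A1, a helicase of initiation, averaged 39.6 ± 7.95 CPM, against 10.6 to 22.3 CPM (1.45 ± 0.083, adjusted p = 4e-16). Of 32 genes that build ribosomes in the nucleolus, 23 rose and 5 fell (median 0.35). NOP58, a core protein of box C/D particles, had 488, 497 and 496 CPM in EGFP(R65) libraries and 200 to 274 CPM in EGFP(R96) libraries (1.16 ± 0.049, adjusted p = 3.03e-21), while FBL, the methyltransferase of the same particles, fell (-0.72 ± 0.065, adjusted p = 4.6e-12).

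Of 43 nuclear genes for subunits of the respiratory chain and ATP synthase, 37 fell and 1 rose (median -0.73). NDUFA1, a subunit of complex I, had 33.4, 34.6 and 36.8 CPM in EGFP(R65) libraries and a lowest of 90.3, a median of 109 and a highest of 227 CPM in EGFP(R96) libraries (-1.71 ± 0.15, adjusted p = 7.14e-10). NDUFB10, of the same complex, was the 1 that rose, with 250, 249 and 255 CPM in EGFP(R65) libraries and 87.6 to 137.4 CPM in EGFP(R96) libraries. The 13 mRNAs encoded in mitochondria had 12 falls and no rise (median -0.59), and the counts were the same at an unadjusted p under 0.05 and with DESeq2. MT-CO3, a subunit of cytochrome c oxidase, had 2253, 2148 and 2084 CPM in EGFP(R65) libraries and 3536 to 4850 CPM in EGFP(R96) libraries (-0.94 ± 0.057, adjusted p = 1.24e-16). Of 34 mitochondrial ribosomal protein genes, 26 fell and 3 rose. With a correction for exon length, the mitochondrially encoded mRNAs gave 4 falls and 3 rises.

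The difference ran with gene length. Among genes of at least 1 CPM, the fifth with the shortest summed exons (60 to 2446 bases) had a median log2 change of -0.39, with 25.4% rising and 54.9% falling. The fifth with the longest exons (8012 bases and more) had a median of 0.23, with 55.5% rising and 25.4% falling. For each EGFP(R96) reporter against the mean of the other 3, the medians of these 5 groups stayed within -0.16 and 0.15. Length trends appeared there too, with medians of the shortest and longest groups of 0.15 and -0.16 for EGFP(R96C). They were -0.07 and 0.09 for EGFP(R96W), -0.03 and 0.08 for EGFP(R96H) and -0.06 and -0.02 for EGFP(R96Q). A length trend as such was thus not particular to EGFP(R65). The mean exon length weighted by counts was 6927 ± 26.3 bases in EGFP(R65) libraries and 6347 ± 219 bases in EGFP(R96) libraries. Ribosomal protein genes had a median exon length of 3109 bases and respiratory chain genes of 2711 bases, where all genes tested had 3647, and mitochondrially encoded mRNAs had 784. By GC content, also in 5 groups of genes, the lowest (up to 42.1%) had a median of 0.27 and the others between -0.17 and 0.03. For the same contrast with mc-tRNA, the lowest had a median of -0.0017. GC trends also appeared for each EGFP(R96) reporter against the mean of the other 3. Medians of the lowest and highest GC groups were -0.27 and 0.15 for EGFP(R96C) and 0.20 and -0.13 for EGFP(R96W). They were 0.19 and -0.05 for EGFP(R96H) and -0.13 and 0.04 for EGFP(R96Q). A GC trend was thus not particular to EGFP(R65). The part of length and of GC content in the results of single genes was not tested beyond the corrections given with the alternatives.

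**Figure D4:**
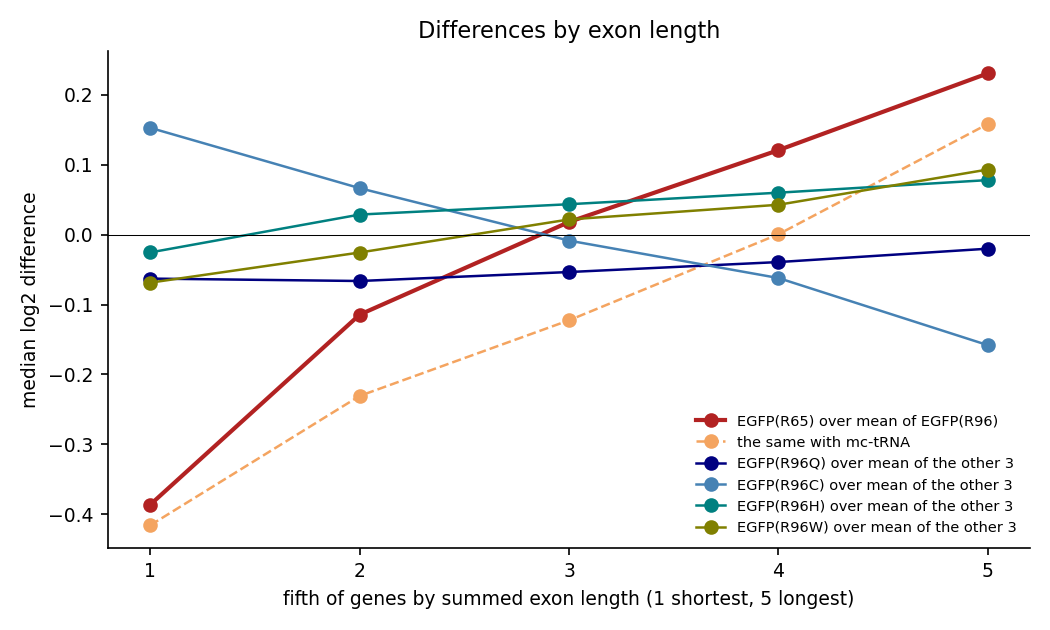
Median log2 difference of genes in 5 equal groups by summed exon length, shortest at the left, for EGFP(R65) over the mean of the EGFP(R96) reporters, for the same with mc-tRNA, and for each EGFP(R96) reporter over the mean of the other 3. The EGFP(R65) line ran from -0.39 to 0.23 and the EGFP(R96) lines stayed within -0.16 and 0.15, with EGFP(R96C) running from 0.15 down to -0.16.

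Chaperones were higher in EGFP(R65) cells. They fold new and damaged proteins, and their genes are induced by heat shock factor when unfolded protein builds up in the cytosol. Of 30 genes for cytosolic chaperones and heat shock proteins, 24 rose and 3 fell (median 0.44). Their sum was 15848, 15945 and 16114 CPM in EGFP(R65) libraries and at least 9599 CPM in EGFP(R96) libraries, with a median of 10825 CPM. HSPA1B, an inducible HSP70, had 1042, 1025 and 1263 CPM in EGFP(R65) libraries and a lowest of 155.03, a median of 242 and a highest of 495 CPM in EGFP(R96) libraries (2.16 ± 0.12, adjusted p = 6.07e-13). HSPA1A is a near-identical copy and had 3.29, 3.78 and 4.18 CPM in EGFP(R65) libraries and 0.349 to 1.76 CPM in EGFP(R96) libraries, so how the counts divide between the copies is uncertain. DNAJB1, an HSP40 that works with HSP70, had 206, 210 and 213 CPM in EGFP(R65) libraries and 93.2 to 160 CPM in EGFP(R96) libraries (0.86 ± 0.058, adjusted p = 2.76e-15). None of these overlapped between the sides. HSPE1, the mitochondrial HSP10, and HSPB1, a small heat shock protein, fell (-0.48 ± 0.11, adjusted p = 0.000431, and -0.43 ± 0.063, adjusted p = 2.2e-07), but neither passed with the exon length correction (-0.17, adjusted p = 0.129, and -0.05, adjusted p = 0.455). The response of the endoplasmic reticulum was split, with 10 of 28 genes rising and 10 falling. Its main chaperone HSPA5 had 566, 587 and 612 CPM in EGFP(R65) libraries and 488 to 727 CPM in EGFP(R96) libraries, and its difference did not pass the test (-0.02 ± 0.056, adjusted p = 0.748).

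A promoter is shown because the chaperone genes moved together. In the 250 bases before the RefSeq start, a heat shock element (alternating GAA and TTC units at the usual spacing, either strand) was found in 3 of 25 chaperone promoters (12%), against 0.439% of 27305 promoters, both strands searched. CHORDC1, an HSP90 co-chaperone, rose by 1.85 ± 0.078 (adjusted p = 4.22e-17) and its promoter held 3 overlapping matches, in capitals (RefSeq, GRCh38.p14, chr11:90223050-90223299, minus strand). It was chosen after its values were seen.
CHORDC1: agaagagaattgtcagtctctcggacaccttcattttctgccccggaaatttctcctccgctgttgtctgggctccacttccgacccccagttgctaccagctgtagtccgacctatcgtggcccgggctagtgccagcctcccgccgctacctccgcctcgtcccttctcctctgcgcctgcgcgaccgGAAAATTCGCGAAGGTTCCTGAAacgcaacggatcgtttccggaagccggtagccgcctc

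Genes of DNA replication and of mitosis went opposite ways. Of 30 S phase genes, 23 rose and 5 fell (median 0.40). Of 30 G2 and M phase genes, 3 rose and 23 fell (median -0.49). DTL, which marks licensing factors for destruction in S phase, had 390, 392 and 384 CPM in EGFP(R65) libraries and a lowest of 141.9, a median of 165 and a highest of 195 CPM in EGFP(R96) libraries (1.23 ± 0.047, adjusted p = 1.63e-22). CCNE2, a cyclin of the G1 to S transition, had 51.1, 47.6 and 42.1 CPM in EGFP(R65) libraries and 14.5 to 27.4 CPM in EGFP(R96) libraries (1.22 ± 0.069, adjusted p = 1.49e-17). Neither overlapped between the sides. TYMS, which makes thymidylate, fell (-0.37 ± 0.05, adjusted p = 4.25e-08). On the mitotic side, KIF20A, a kinesin of cytokinesis, had 38.8, 39.5 and 38.9 CPM in EGFP(R65) libraries and a lowest of 103, a median of 123 and a highest of 140.6 CPM in EGFP(R96) libraries (-1.64 ± 0.072, adjusted p = 1.11e-20). CDC20, which activates the anaphase-promoting complex, had 86.8, 89.7 and 78.5 CPM in EGFP(R65) libraries and 147.9 to 312.9 CPM in EGFP(R96) libraries (-1.41 ± 0.091, adjusted p = 1.39e-13). Both stood apart from every EGFP(R96) library. KIF11 (0.39 ± 0.071, adjusted p = 1.45e-05) and CENPE (0.74 ± 0.26, adjusted p = 0.0141) rose, with overlap between the libraries in both. CENPE lost its call without EGFP(R65) replicate 2 or 3 (adjusted p = 0.0566 and 0.0632), with EGFP(R96Q) or EGFP(R96C) set aside (adjusted p = 0.0503 and 0.181) and with the GC or the exon length correction (0.37, adjusted p = 0.144, and 0.56, adjusted p = 0.0529).

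Promoters of the 2 phases are shown because their genes differed in direction. Each list was searched for its own letters only, so the letters do not set the phases apart. The S phase promoters printed below also hold CCAAT or its reverse complement, left in lower case. TTTNNCGC, a form of the E2F site, was found on either strand in 11 of 26 S phase promoters (42.3%), against 5.93% of 27305 promoters. CCAAT was found in 19 of 25 G2 and M phase promoters (76%), against 33.0%, and TTTGAA, the cell cycle homology region, in 13 of 25 (52%), against 13.6%. The first set holds DTL (chr1:212035498-212035747, plus strand), MCM6, a subunit of the replicative helicase (chr2:135876444-135876693, minus strand, log2 change 0.67 ± 0.052), and the E2F factor gene E2F1 (chr20:33686386-33686635, minus strand, 0.78 ± 0.05), with the E2F letters in capitals and overlapping matches run together.
DTL: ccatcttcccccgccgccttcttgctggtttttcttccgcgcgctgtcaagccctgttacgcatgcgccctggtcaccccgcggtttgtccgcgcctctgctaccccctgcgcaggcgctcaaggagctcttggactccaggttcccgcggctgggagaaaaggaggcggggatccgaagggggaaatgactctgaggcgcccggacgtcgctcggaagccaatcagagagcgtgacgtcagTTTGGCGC
MCM6: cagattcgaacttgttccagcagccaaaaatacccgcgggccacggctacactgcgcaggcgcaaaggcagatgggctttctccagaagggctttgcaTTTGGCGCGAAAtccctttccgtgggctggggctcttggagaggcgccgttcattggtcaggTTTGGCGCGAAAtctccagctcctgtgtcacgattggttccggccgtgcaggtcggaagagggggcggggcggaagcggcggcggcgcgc
E2F1: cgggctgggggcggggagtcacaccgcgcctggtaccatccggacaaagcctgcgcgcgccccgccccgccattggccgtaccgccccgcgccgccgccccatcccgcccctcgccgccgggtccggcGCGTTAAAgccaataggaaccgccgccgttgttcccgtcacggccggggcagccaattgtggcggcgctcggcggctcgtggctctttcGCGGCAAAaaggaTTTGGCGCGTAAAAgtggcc

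The second set holds CDC20 (chr1:43358731-43358980, plus strand), the mitotic kinase gene PLK1 (chr16:23678639-23678888, plus strand, log2 change -1.28 ± 0.077) and the cyclin gene CCNB2 (chr15:59104896-59105145, plus strand, -0.64 ± 0.055), with CCAAT and TTTGAA or their reverse complements in capitals.
CDC20: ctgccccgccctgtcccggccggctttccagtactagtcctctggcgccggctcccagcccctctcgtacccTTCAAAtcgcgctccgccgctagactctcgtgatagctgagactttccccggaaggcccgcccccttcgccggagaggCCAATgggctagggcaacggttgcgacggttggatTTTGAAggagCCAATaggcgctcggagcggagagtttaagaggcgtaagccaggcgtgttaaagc
PLK1: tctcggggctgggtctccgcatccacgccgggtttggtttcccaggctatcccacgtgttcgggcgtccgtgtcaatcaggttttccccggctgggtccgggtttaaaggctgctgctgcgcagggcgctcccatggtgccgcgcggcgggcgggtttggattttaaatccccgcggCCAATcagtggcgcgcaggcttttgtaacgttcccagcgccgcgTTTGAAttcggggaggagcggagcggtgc
CCNB2: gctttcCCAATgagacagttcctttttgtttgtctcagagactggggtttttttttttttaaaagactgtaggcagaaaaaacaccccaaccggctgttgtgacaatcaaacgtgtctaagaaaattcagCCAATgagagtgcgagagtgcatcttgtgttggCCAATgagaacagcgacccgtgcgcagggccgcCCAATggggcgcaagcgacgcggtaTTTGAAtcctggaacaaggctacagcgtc

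These letters are descriptions of the sequence and say nothing of which factor was bound. All 6 sequences are from RefSeq on GRCh38.p14, and the genes other than DTL and CDC20 were chosen after their values were seen.

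Genes of lipid and sugar metabolism were mostly lower. Of 24 cholesterol synthesis genes, 20 fell and 1 rose (median -0.57). INSIG1, which holds the sterol sensor in the endoplasmic reticulum and is itself a sterol-regulated gene, had 68.7, 70.4 and 87.2 CPM in EGFP(R65) libraries and a lowest of 154.8, a median of 219 and a highest of 265 CPM in EGFP(R96) libraries (-1.51 ± 0.095, adjusted p = 1.49e-13). PMVK, a kinase of the mevalonate path, fell by 1.29 ± 0.098 on the log2 scale (adjusted p = 3.21e-13). MVD, of the same path, was the 1 that rose (0.35 ± 0.06, adjusted p = 5.13e-06), and its libraries overlapped. The sterol regulatory letters TCACNCCAC were found in 1 of 18 promoters of the list (5.56%), against 0.875% of all. Of 14 fatty acid synthesis genes, 9 fell and 2 rose. ACLY, which makes cytosolic acetyl-CoA, had 333, 336 and 314 CPM in EGFP(R65) libraries and 591 to 935 CPM in EGFP(R96) libraries (-1.17 ± 0.056, adjusted p = 1.63e-19). Of 32 glycolytic and hypoxia-inducible genes, 22 fell and 5 rose (median -0.45). LDHA, which makes lactate, had 220, 227 and 237 CPM in EGFP(R65) libraries and a lowest of 604, a median of 667 and a highest of 862 CPM in EGFP(R96) libraries (-1.61 ± 0.059, adjusted p = 5.18e-23). ALDOC, an aldolase, fell by 2.33 ± 0.13 (adjusted p = 6.95e-18). KDM3A, a hypoxia-inducible histone demethylase, and SLC2A1, the glucose carrier GLUT1, rose (0.90 ± 0.055, adjusted p = 1.85e-16, and 0.41 ± 0.09, adjusted p = 0.000224). TXNIP, an inhibitor of glucose uptake, had 35.8, 37.1 and 39.2 CPM in EGFP(R65) libraries and 102 to 219 CPM in EGFP(R96) libraries (-1.99 ± 0.10, adjusted p = 4.91e-15).

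Signal-responsive genes were mostly higher. Of 25 immediate early genes, 17 rose and 3 fell (median 0.47). FOSL2, an AP-1 subunit, had 24.8, 25.5 and 20.9 CPM in EGFP(R65) libraries and a lowest of 6.28, a median of 7.64 and a highest of 11.6 CPM in EGFP(R96) libraries (1.55 ± 0.072, adjusted p = 5.73e-20), with no overlap. FOS itself had 20.4, 20.6 and 20.2 CPM in EGFP(R65) libraries and a lowest of 3.46, a median of 5.81 and a highest of 24.2 CPM in EGFP(R96) libraries (1.55 ± 0.19, adjusted p = 2.3e-07). Its libraries overlapped, since the log2 difference was 0.27 from EGFP(R96Q) and 1.57 to 2.39 from the other 3. EGR1 also rose, by 0.36 over EGFP(R96Q) and 1.45 to 1.59 over the other 3 (1.23 ± 0.12, adjusted p = 9.88e-10), and MYC fell (-0.39 ± 0.061, adjusted p = 7.45e-07). The letters TGACGTCA, a cyclic AMP response element, were found in 2 of 19 promoters of the list (10.5%), against 1.77% of all. Of 18 NF-kB and inflammatory genes, 10 rose and 3 fell, among them BIRC3, an inhibitor of apoptosis (2.11 ± 0.13, adjusted p = 1.19e-16). Of 23 p53 targets, 13 rose and 5 fell, with TP53INP1 (1.31 ± 0.068, adjusted p = 1.25e-17) the largest rise, while CDKN1A, the cell cycle inhibitor p21, fell (-0.54 ± 0.067, adjusted p = 6.66e-09).

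Targets of the integrated stress response, in which a block of initiation favours translation of ATF4, were divided. Of 36 genes, 11 rose and 18 fell (median -0.16). PPP1R15A, the phosphatase subunit that ends the response, had 231, 236 and 223 CPM in EGFP(R65) libraries and a lowest of 50.9, a median of 65.1 and a highest of 75.3 CPM in EGFP(R96) libraries (1.86 ± 0.063, adjusted p = 4.65e-22). ATF3, a stress-induced repressor, had 427, 437 and 403 CPM in EGFP(R65) libraries and 107 to 189 CPM in EGFP(R96) libraries (1.61 ± 0.06, adjusted p = 1.26e-21). Both stood above every EGFP(R96) library. GDF15 (-1.65 ± 0.12, adjusted p = 1.8e-14) and DDIT4 (-0.98 ± 0.089, adjusted p = 1.68e-10) fell. DDIT3, which encodes CHOP, rose by 0.42 ± 0.11 (adjusted p = 0.00213), and its log2 difference was -0.10 from EGFP(R96W) and 0.99 from EGFP(R96Q). ASNS, asparagine synthetase, fell by 0.24 ± 0.1 (adjusted p = 0.035), and its difference was 0.26 from EGFP(R96Q) and -0.66 from EGFP(R96H). ATF4 fell by 0.15 ± 0.051 (adjusted p = 0.00804), and its difference was 0.05 from EGFP(R96Q) and -0.33 from EGFP(R96H). For these 3 genes the direction depended on the EGFP(R96) reporter chosen. DDIT3 lost its call with EGFP(R96Q) set aside (0.23, adjusted p = 0.0858). ATF4 lost its call without EGFP(R65) replicate 1 (-0.12, adjusted p = 0.0741), with EGFP(R96H) set aside (-0.09, adjusted p = 0.106) and with the GC correction (-0.0024, adjusted p = 0.966), and turned to 0.05 with the exon length correction (adjusted p = 0.298). ASNS lost its call under several alternatives, among them leaving out EGFP(R65) replicate 1 or 2 (adjusted p = 0.18 and 0.144), with adjusted p of 0.0518 to 0.375 over those that ended it. Of 20 NRF2 targets, 7 rose and 10 fell, and HMOX1, heme oxygenase, had 34.8, 33.0 and 28.1 CPM in EGFP(R65) libraries and 22.6 to 45.5 CPM in EGFP(R96) libraries and did not pass the test (-0.07 ± 0.13, adjusted p = 0.66).

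Interferon-stimulated genes were split, with 7 of 29 rising and 14 falling (median -0.34). IFIT1, which binds foreign RNA ends, had 0.698, 1.08 and 1.06 CPM in EGFP(R65) libraries and a lowest of 4.14, a median of 4.93 and a highest of 10.8 CPM in EGFP(R96) libraries (-2.61 ± 0.14, adjusted p = 9.77e-18). MX1, an antiviral GTPase, had 2.7, 2.48 and 1.7 CPM in EGFP(R65) libraries and 0.0872 to 0.268 CPM in EGFP(R96) libraries (3.83 ± 0.28, adjusted p = 1.66e-14). The 2 genes stood apart from every EGFP(R96) library in opposite directions.

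Genes of splicing and RNA turnover were higher. Of 23 SR proteins and CLK kinases, which phosphorylate them, 17 rose and none fell (median 0.36; edgeR, with 0 falls also at an unadjusted p under 0.05 and with DESeq2, and 1 fall with library totals or with a GC or length correction). CLK1 had 250, 254 and 251 CPM in EGFP(R65) libraries and a lowest of 61.2, a median of 89.4 and a highest of 119 CPM in EGFP(R96) libraries (1.53 ± 0.048, adjusted p = 4.68e-25), with no overlap. Of 18 host transcripts of small nucleolar RNAs, 11 rose and 3 fell (median 0.76), with SNHG12 at 123, 125 and 122 CPM in EGFP(R65) libraries and 25.4 to 50.8 CPM in EGFP(R96) libraries (1.80 ± 0.051, adjusted p = 1.62e-26). Of 14 nonsense-mediated decay genes, 8 rose and 2 fell. SMG1, the kinase that starts this decay, had 637, 618 and 597 CPM in EGFP(R65) libraries and 205 to 343 CPM in EGFP(R96) libraries (1.17 ± 0.074, adjusted p = 7.15e-14). All 20 genes of ribosome quality control passed, 14 up and 6 down, with LTN1, the ligase that marks stalled nascent chains, the largest rise (1.10 ± 0.11, adjusted p = 1.56e-08). Of 23 cytosolic aminoacyl-tRNA synthetases, which load tRNAs, 11 rose and 6 fell. TARS1 rose by 0.82 ± 0.047 (adjusted p = 3.26e-17) and QARS1 fell by 0.60 ± 0.057 (adjusted p = 1.78e-11). Of 52 tRNA processing and modification enzymes, 28 rose and 19 fell.

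The circadian clock list rose in part, with 11 of 19 genes rising and 3 falling (median 0.64). BMAL1, the activator at its core, had 49.3, 49.2 and 46.0 CPM in EGFP(R65) libraries and a lowest of 8.78, a median of 10.8 and a highest of 15.1 CPM in EGFP(R96) libraries (2.13 ± 0.068, adjusted p = 7.81e-25). PER2, a repressor in the loop, had 37.1, 35.8 and 32.4 CPM in EGFP(R65) libraries and 8.61 to 17.8 CPM in EGFP(R96) libraries (1.51 ± 0.091, adjusted p = 4.91e-15). DBP, a clock output gene, fell (-0.91 ± 0.081, adjusted p = 2.89e-12).

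Structural genes were mostly lower. Of 11 tubulins, 8 fell and 2 rose (median -0.70). TUBB had 636, 638 and 683 CPM in EGFP(R65) libraries and a lowest of 1686, a median of 1891 and a highest of 2272 CPM in EGFP(R96) libraries (-1.55 ± 0.056, adjusted p = 4.29e-23). ACTB, cytoplasmic actin, had 537, 542 and 487 CPM in EGFP(R65) libraries and 769 to 1390 CPM in EGFP(R96) libraries (-0.99 ± 0.062, adjusted p = 2.97e-16), and 16 of 28 actin and adhesion genes fell while 6 rose. Of 28 matrix genes, 21 fell and 2 rose (median -0.65), led by COL3A1 (-1.62 ± 0.17, adjusted p = 1.49e-10) and the crosslinking enzyme LOXL2 (-1.54 ± 0.11, adjusted p = 4.87e-15). COL4A6, a basement membrane collagen, went the other way, with 127, 132.96 and 139.3 CPM in EGFP(R65) libraries and 26.7 to 37.1 CPM in EGFP(R96) libraries (2.13 ± 0.043, adjusted p = 3.34e-31). Of 36 HOX genes, which keep positional identity, 23 fell and 3 rose, and with a correction for exon length 14 fell and 5 rose. Of 18 YAP and TEAD targets, 12 rose and 3 fell, with AMOTL2, a regulator of YAP, at 61.2, 65.3 and 50.1 CPM in EGFP(R65) libraries and 19.7 to 28.8 CPM in EGFP(R96) libraries (1.26 ± 0.084, adjusted p = 1.51e-13).

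**Figure D5:**
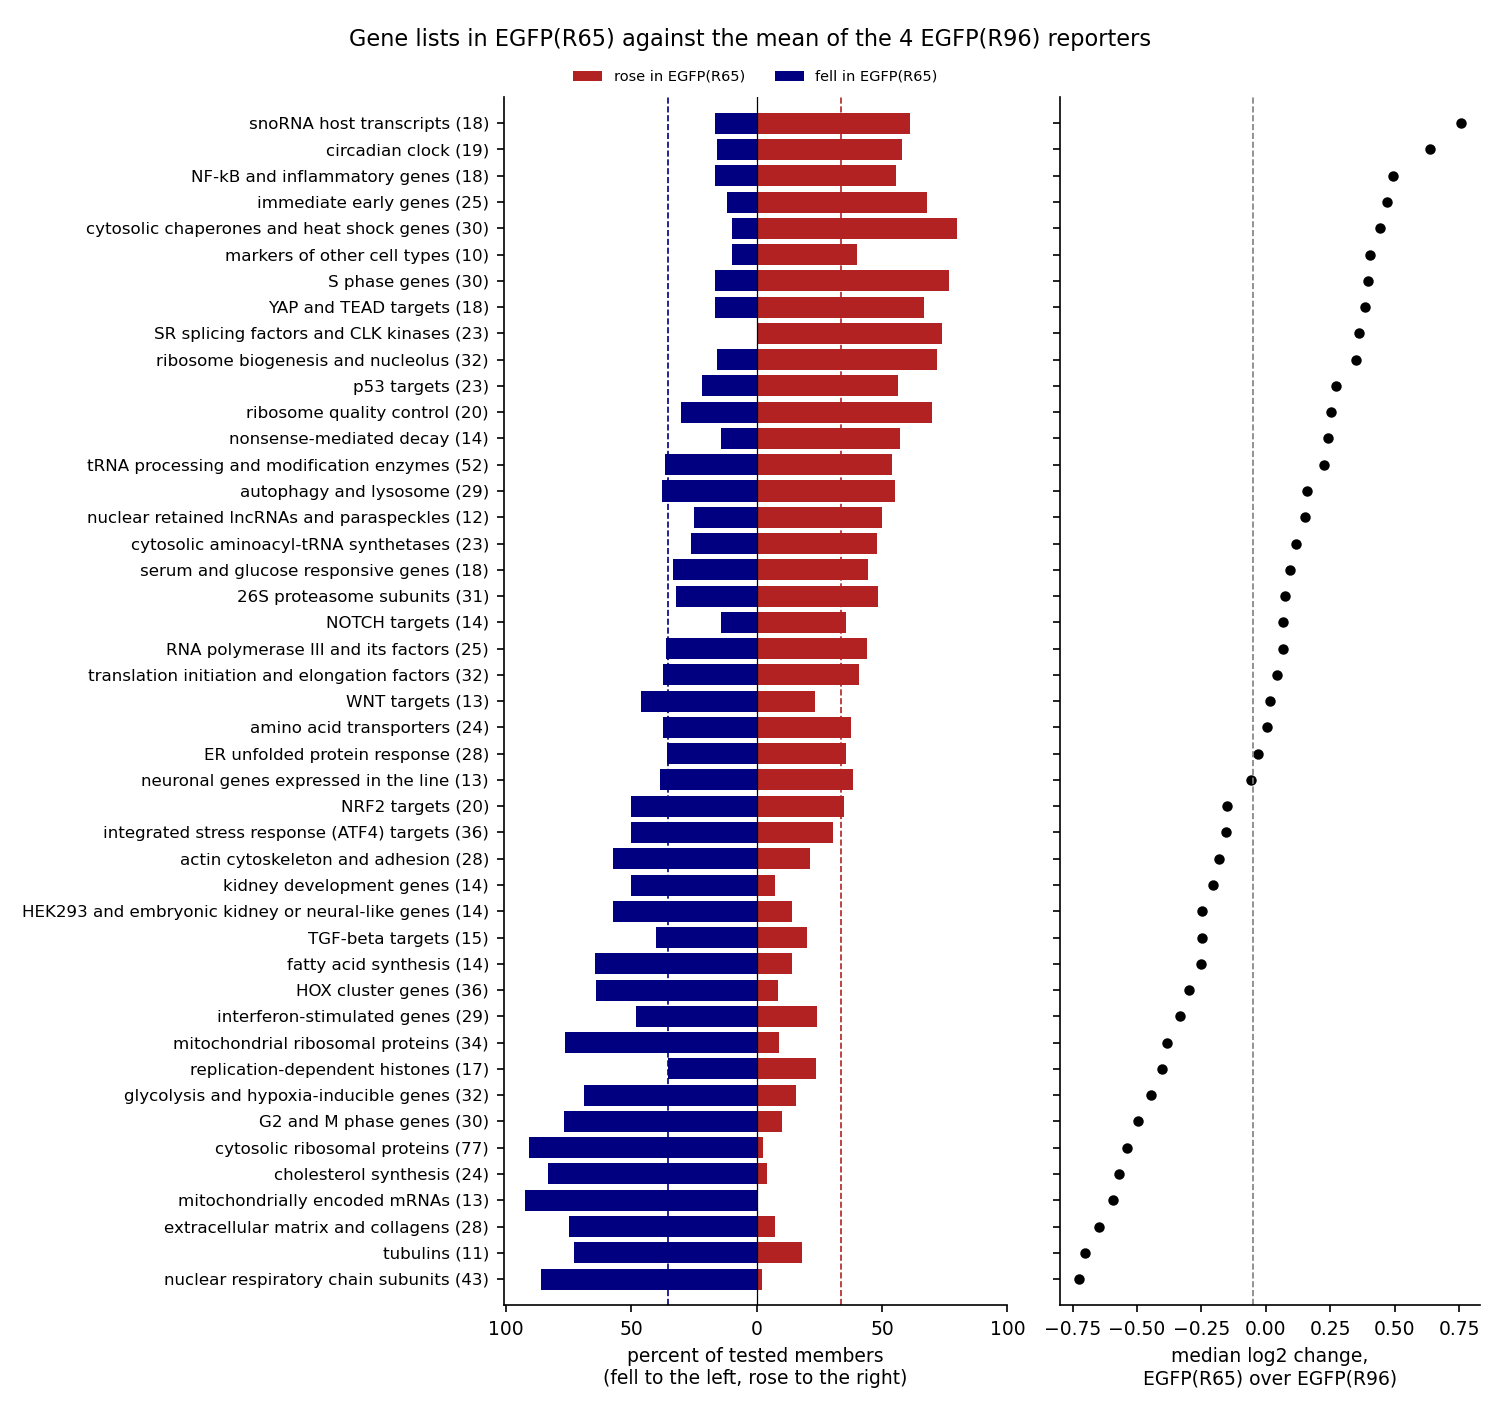
Gene lists with at least 10 tested members (number in brackets), with the percent of members that fell (blue, to the left) and rose (red, to the right) in EGFP(R65) against the mean of the 4 EGFP(R96) reporters, and the median log2 change beside it. Dashed lines mark all genes tested (35.4% fell, 33.6% rose, median -0.05), and ribosomal proteins, respiratory chain, cholesterol, matrix and mitotic genes lay on the falling side while chaperones, S phase and splicing genes lay on the rising side.

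The lists of the line itself and of other cell types were measured beside these. Markers known from HEK293 were present on both sides, with VIM at 437 ± 15.2 CPM in EGFP(R65) libraries and 446 to 608 CPM in EGFP(R96) libraries, and PAX8 was at most 0.05 CPM in every library of both sides. Of the 14 tested, 2 rose and 8 fell. Of 21 markers of stromal, blood, keratinocyte, endothelial, liver and muscle cells, 10 were high enough to test, and 4 rose and 1 fell. Their sum was 30.9, 33.6 and 30.6 CPM in EGFP(R65) libraries and at least 18.8 CPM in EGFP(R96) libraries, with a median of 22.9 CPM, most of it COL1A1. CD3E and HBB had 0 counts in all 15 libraries, and KRT14 and KRT1 had at most 1 count a side, so the keratin difference of KRT16 came without these keratinocyte markers.

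The same contrast was made in the libraries that also carried mc-tRNAs, which are other libraries. There, 7970 genes were higher in EGFP(R65)+Ser-tRNA_Arg(CCG) cells than in the mean of the 4 EGFP(R96) groups with mc-tRNA (35.7%) and 8475 were lower (38.0%), so that 73.7% were called. Both comparisons called 5044 genes higher, 67.2% of those without and 63.3% of those with mc-tRNA, and 5468 genes lower, 69.3% and 64.5%. Opposite calls were made for 1038 genes that were higher without and lower with mc-tRNA and for 783 the other way. The difference between the 2 contrasts passed the test for 11593 genes (51.9%).

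Chaperones were among the lists that did not keep their direction. With mc-tRNAs, 25 of 30 were lower in EGFP(R65)+Ser-tRNA_Arg(CCG) cells and 3 were higher (median -0.65), and the difference from the contrast without mc-tRNA passed the test for all 30. HSPA1B averaged 388 ± 47.0 CPM in EGFP(R65)+Ser-tRNA_Arg(CCG) cells, against 284 ± 43.7 CPM in EGFP(R96Q)+Arg-tRNA_Gln(CUG), 13903 ± 162 CPM in EGFP(R96C)+Arg-tRNA_Cys(GCA), 369.5 ± 28.9 CPM in EGFP(R96H)+Arg-tRNA_His(GUG) and 2229 ± 247 CPM in EGFP(R96W)+Arg-tRNA_Trp(CCA) cells (SD, n = 3 each). The EGFP(R96C) group with its mc-tRNA was thus far above the rest, and with it set aside 13 chaperones were higher and 12 lower (median 0.02). With the EGFP(R96C) groups set aside from both contrasts, the difference between them passed the test for 24 of 30 chaperones, all lower with mc-tRNA. Targets of the integrated stress response had 29 of 36 lower with mc-tRNAs, and 21 lower and 10 higher with the same group set aside. The ribosomal protein list kept its side (66 of 77 lower), as did the respiratory chain (41 of 43), cholesterol synthesis (20 of 24), matrix genes (19 of 28), S phase genes (18 of 30 higher) and the clock (12 of 19 higher). BMAL1 averaged 76.2 ± 3.34 CPM in EGFP(R65)+Ser-tRNA_Arg(CCG) cells, against 9.71 to 45.4 CPM in the means of the 4 EGFP(R96) groups with mc-tRNA. HOX genes did not keep their side, with 17 of 36 higher and 7 lower, where 23 were lower without mc-tRNA. MX1 averaged 0.0476 ± 0.0249 CPM in EGFP(R65)+Ser-tRNA_Arg(CCG) cells and 2.29 ± 0.526 CPM in EGFP(R65) cells.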

How the data were processed

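The authors deposited raw counts per gene, 1 file per library, for 58278 genes and 92 ERCC sequences. Per the submitters' processing notes, STAR, SAMtools and featureCounts were used with build hg38. Versions, annotation and strand setting were not given in the sources used here, so antisense pairs are uncertain. Names and exon lengths came from the symbol tables and GENCODE 29 (57940 gene IDs matched, 55109 with the same version, whose positions are printed).

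Counts were fitted with edgeR 4.0.16 in R 4.3.3 (TMM factors, filterByExpr, robust quasi-likelihood) as 10 group means over all 30 libraries, which share 1 estimate of the spread with 20 residual degrees of freedom (biological coefficient of variation 8.24%). Contrasts are EGFP(R65) minus the mean of the EGFP(R96) groups, and 11 contrasts were tested over 22321 genes. Rose, fell and called mean an adjusted p under 0.05. The ± after a log2 change is its SE, n is 3 against 12 libraries unless said, and CPM is scaled by TMM. Counting intervals (95%, exact binomial) and the floor of 3 counts summed over a side cover counting error only. The fit was tested on simulated data. Replicate pairs differed by more than counting error (chi-square of 2.11 to 43.2 per degree of freedom). Genes named are the 12 largest rises and falls among genes of at least 1 CPM on their higher side that do not overlap and are called against all 4 reporters, the 6 each at 50 CPM, the 2 largest called rises and falls of each list, and 15 fixed genes. Some genes named by this rule are not reported here. The 47 lists, like the members, were chosen with earlier results of these data known, and each is described by its counts with no set test. Alternatives were other scaling factors, filter, tool, libraries, GC and length corrections, a replicate block and leaving out libraries or groups.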

Additional observations from a re-analysis of the deposited data

Results flagged for a closer look

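Among the 24 genes with the largest differences, 3 had a contrast of EGFP(R65) and EGFP(R96) cells that differed with and without mc-tRNA (edgeR, difference of the contrasts). Over all 22321 genes tested, 11593 (51.9%) passed this test, so 3 of 24 is no excess. The 24 genes were picked for large differences without mc-tRNA, and the part of that choice in the differences below was not tested. For CYP11A1 the contrast was 9.93 with mc-tRNA and 11.88 without, a difference of -1.95 (adjusted p = 0.0407). For CACNA1A it was 9.84 with and 11.81 without, a difference of -1.97 (adjusted p = 0.00376). In both, all libraries of both kinds were higher with EGFP(R65). For LINC02150 it was -6.00 with and -9.34 without, a difference of 3.35 (adjusted p = 0.00544), with 0.266 to 0.36 CPM in EGFP(R65)+Ser-tRNA_Arg(CCG) libraries and 0.0225 to 0.025 CPM in EGFP(R65) libraries. Fitted values of genes near 0 on 1 side depend on the few counts there.

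ERCC sequences, which entered no comparison, averaged 2.16 ± 0.517 per 1e6 gene counts in EGFP(R96Q) libraries, 1.53 ± 0.327 in EGFP(R96C), 0.395 ± 0.0184 in EGFP(R96H) and 1.00 ± 0.261 in EGFP(R96W) (SD, n = 3 each), and 0 in EGFP(R65), with and without mc-tRNA. The EGFP(R96) groups with mc-tRNA had sums of 40 to 114 counts. The origin of these counts was not tested.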

How the results depend on the processing

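The count of called genes, 15397, ran from 14109 to 16219 over all alternatives, and no count of the 12 tests moved by over 1.5 times. It was 15346 with RLE factors, 15465 with library totals, 15298 with DESeq2, 14905 with the 15 reporter-only libraries, 15509 with a GC correction and 14850 with an exon length correction, and the share of rises among calls stayed between 45.4% and 54.1%. No scaling moved the median of all genes by over 0.1. Leaving out 1 library at a time gave 14109 to 15598 calls, 7014 to 7779 up and 7095 to 7939 down, lowest without EGFP(R65) replicate 1. The replicate block gave 15542. Deviations of same-numbered libraries correlated at a median of 0.062 (from -0.339 to 0.415 over 30 pairs). Other-numbered libraries had a median of -0.026 (from -0.357 to 0.293 over 60 pairs), and 10 of 15 libraries matched their own number best. The main fit did not pair the samples by number, and only the replicate block did. ATF4 turned to 0.0539 (adjusted p = 0.298) with the exon length correction. Among values of named genes, 42 lost their call and 5654 kept it or stayed uncalled, with ASNS, MAVS and CENPE among those lost most often. Among the counts of rises and falls of the gene lists, 44 moved over the alternatives and 2494 did not. The exon length correction alone moved 16 of these counts and left 78 the same. Most lists above are given without that correction. Setting aside 1 mc-tRNA group at a time (chosen after seeing the data) gave 16139 to 16408 calls with mc-tRNA, against 16445. Few counts limit the values of genes near 0 on 1 side.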
